A study of Mus musculus with 3 samples.

Results

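Cultures of muscle stem cells (MuSC, satellite cells) that received Oncostatin M (OSM) were compared with cultures that did not, using 1 array for each, which are 2 of the 3 arrays of the series. The members were set by the sample labels, and the comparison was read over 18193 mouse genes with a probe set of their own, of which 11271 were measured, meaning that at least 1 of both arrays lay above a floor of 40. Both arrays held RNA of FACS-sorted MuSC from C57BL/6 mice, wild type and 8 weeks old, after 3 days of culture in medium that the labels give as 10% FBS. MuSC −OSM had FBS alone and MuSC +OSM had 100 ng/mL OSM in addition, and the paper's methods give a different FBS share for standard MuSC culture. The third array, of fresh MuSC taken straight from the sort, is given only as values beside those of the cultures. Values are MAS5 signals in arbitrary units, which can be compared between arrays for the same gene but not between genes. Where a pair of signals follows the name of a gene, the first is that of MuSC −OSM and the second that of MuSC +OSM, and where 3 follow, the last is that of fresh MuSC. With 1 array a side there are no replicates, so no test was made, no value could be checked against the spread between cultures, and precision is limited by how few arrays there are.

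OSM is a cytokine of the interleukin-6 family. In the mouse it binds a receptor made of Osmr and the shared chain gp130, encoded by Il6st, which activates JAK kinases, and these phosphorylate STAT3. STAT3 enters the nucleus and turns on target genes, among them Socs3, whose product closes the loop by blocking the receptor and its kinases. MuSC are quiescent in resting muscle, and after activation they divide as myoblasts, then leave the cell cycle, switch on Myog and fuse into fibers rich in sarcomere proteins.

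The distribution of ratios was lopsided at its far end. A total of 684 measured genes were at least 2-fold higher in MuSC +OSM than in MuSC −OSM, which is 6.07%, and 495 were at least 2-fold lower, which is 4.39%. At 4-fold the counts were 135 and 45, at 8-fold 34 genes were higher and 0 lower, and at 16-fold 6 were higher. Genes past 2-fold were thus higher in 58.0% of cases and those past 4-fold in 75%. The first share rested on the floor. It was 42.9%, with more genes lower than higher, when the 25th percentile of all signals served as floor. The median log2 ratio of MuSC +OSM over MuSC −OSM was -0.01, the 5th and 95th percentiles were -0.94 and 1.11, and the 1st and 99th were -1.66 and 2.11. Centring each array on its median moved the median log2 ratio to 0.15 and the share of higher genes among those past 2-fold to 72.0%, and quantile normalization gave -0.03 and 54.2%. Of 820 genes whose higher signal passed 2560, 42 were higher and 46 lower, and their median log2 ratio was -0.26.

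**Figure D1:**
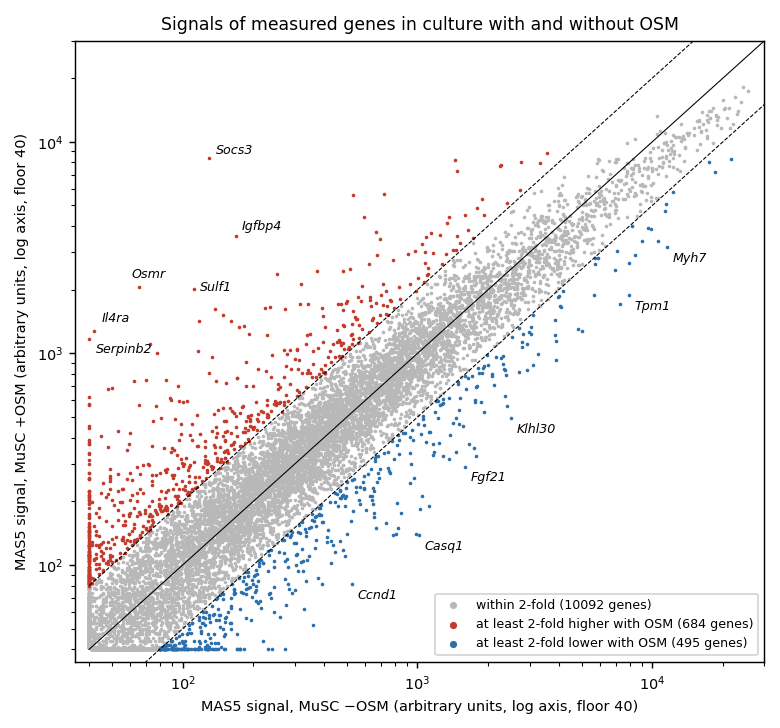
MAS5 signal of the 11271 measured genes in MuSC −OSM, on the horizontal log axis, against MuSC +OSM, on the vertical log axis, in arbitrary units with signals raised to the floor of 40. Points in red are 684 genes with a ratio of 2 or more, points in blue the 495 at least 2-fold lower and points in gray the 10092 within 2-fold, and Socs3 lies farthest from the diagonal at 129 and 8400.

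Both cultures held cells of the myogenic lineage. Pax7, a transcription factor of satellite cells, had signals of 282 without OSM and 431 with it. Myod1, the factor of activated myoblasts, had 3820 and 4148, and Des, the intermediate filament desmin, had 6183 and 7248. Cdh15, which encodes M-cadherin, had 569 and 698, and Vcam1 had 464 and 493. Each of these lay within 2-fold between the cultures. Of the 10 satellite cell and myoblast markers examined, 1, Myf5, was at least 2-fold apart. All 10 lay above the floor in both cultures. Endothelial and leukocyte markers were mostly under the floor in both cultures. Of 17 fibroblast markers with a probe set, by contrast, 12 were measured, of 12 pericyte and smooth muscle markers 10, and of 8 Schwann cell markers 7. Of 12 endothelial markers 2 were measured, with Egfl7 at 91 and 67, and Cdh5 had 6 and 22. Pecam1, which encodes CD31 and was named after its value was seen, had 4 and 2. Of 17 leukocyte markers 6 were measured, with 2 at least 2-fold higher and 1 lower. These are 33.3% and 16.7%, beside 6.07% and 4.39% over all genes. The higher ones were Csf1r at 62 and 149 and H2-Ab1 at 5 and 96. Adgre1, at 83 and 41, was the lower one but under 2-fold with centred arrays and after quantile normalization. Laptm5 had 85 and 61. Ptprc, which encodes CD45 and was named after its value was seen, had 2 and 7. The Y-linked gene Uty lay under the floor in both cultures, and Xist had 4015 and 4956. The control probe sets of β-actin gave a 3′ to 5′ signal ratio, a sign of RNA integrity, of 1.40 without OSM and 1.41 with it, and those of Gapdh gave 1.14 and 0.90.

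The OSM receptor gene stood among the genes with the highest ratios, together with the feedback inhibitor of its own pathway. The signal of Osmr was 65 without OSM and 2063 with it, or 31.7-fold higher, while its other probe set above the floor had a log2 ratio of 1.28 beside the 4.99 of the first. Il6st, the shared chain, had 1742 and 2281 and stayed within 2-fold, with its 3 other probe sets above the floor in the same direction. Lifr, the receptor chain for leukemia inhibitory factor, had 58 and 254, or 4.38-fold higher. Cntfr and Il27ra, receptors for other cytokines of the family, were under the floor in both cultures, and Il6ra was at 50 without OSM and 18 with it. Among the ligands, Osm itself had signals of 30 and 18 and Il6 16 and 20, all under the floor. Lif had 81 and 72, Clcf1 382 and 507, and Ctf1, which encodes cardiotrophin-1, 137 and 43, or 3.19-fold lower. In all, 2 of 8 measured genes of this family were at least 2-fold higher and 1 was lower. These are 25% and 12.5%, beside 6.07% and 4.39% over all genes.

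Jak2 had the largest ratio among the kinases and STAT factors. Its signal was 170 without OSM and 769 with it, or 4.52-fold higher, and Jak1 had 480 and 887, or 1.85-fold. Stat3 had 576 and 887, or 1.54-fold, with its other 3 probe sets above the floor in the same direction. Stat5a lay at the threshold, at 107 and 214, and was below 2-fold after quantile normalization and as the median over its probe sets. Its other probe set above the floor had a log2 ratio of 0.07. Tyk2, another kinase of the family, had 213 and 149, and Stat4 and Jak3 were under the floor in both cultures. The list had 2 of 8 measured genes at least 2-fold higher, or 25% beside 6.07% over all genes, and 0 lower. Its median log2 ratio was 0.39. Feedback genes were unequal too. Socs3 had 129 without OSM and 8400 with it, or 65.1-fold higher, and the smaller ratio of its 2 other probe sets was 5.48 on the log2 scale. Socs2 had 1084 and 3542, or 3.27-fold higher, but its 5 other probe sets ran from 0.14 to 1.37 on the log2 scale and it was below 2-fold as the median over all its probe sets. Socs1, under the floor in both, had 12 and 17. Cish, a member of the family best known as a target of STAT5, had 38 and 83, or at least 2.08-fold higher. Socs4, Socs5, Socs6 and Socs7 stayed within 2-fold, with log2 ratios between those of Socs6, at 443 and 297, and Socs5, at 425 and 753. The phosphatase genes Ptpn1, Ptpn2 and Ptpn11 and the inhibitor gene Pias1 also stayed within 2-fold. For the list, 3 of 12 measured genes were higher, or 25%, and 0 were lower.

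Transcription factor genes known as STAT3 targets, listed with the kinase gene Pim1, had a median log2 ratio of 1.23. Of 11 measured, 7 were at least 2-fold higher, or 63.6% beside 6.07% over all genes, and 0 lower. Bcl3, an atypical inhibitor of NF-kB, had signals of 59 without OSM and 372 with it, or 6.31-fold higher. Cebpd and Cebpb, C/EBP factors of the acute phase response, had 316 and 1712 and 1144 and 3714, which are ratios of 5.42 and 3.25. The other probe set above the floor had a log2 ratio of 0.04 for Cebpd, so its 2 readings do not match, and of 1.94 for Cebpb. Klf4 had 530 and 1592, or 3.00-fold higher with another probe set at 0.47 on the log2 scale, and Fos, a subunit of AP-1, 527 and 1233, or 2.34-fold. The members with a ratio below 1 stayed within 2-fold. Myc had 435 and 375, Pim1, a survival kinase, 324 and 301, and the repressor gene Bcl6 1923 and 1304. In fresh MuSC the signals of Myc and Pim1 were 4550 and 2880. Those of Cebpd, Cebpb, Klf4 and Fos were 12334, 13105, 9918 and 29074, so these too were above both cultures. Bcl3 had 310 and Bcl6 1210 there, each below the signal with OSM.

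Promoters of the genes with the highest and lowest ratios were read from RefSeq as windows of 300 bases, 250 before and 50 after each start site, in build GRCm38.p6. The motif TTCNNNGAA, the general form of sites that STAT proteins bind, was searched, and so was TTCCNGGAA, which is a subset of it, TGANTCA for AP-1, and CAGCTG, an E-box of the kind that MyoD and myogenin bind. Each motif reads the same on both strands, so 1 search covers both. Of the 30 genes with the highest ratios 20 had a promoter in the table, and 7 of these held TTCNNNGAA, namely Socs3, Serpinb2, Csf2rb2, Gcnt2, Bdnf, Casp12 and Pros1. Of the 30 lowest, 19 had a promoter and 0 held it. These are counts of genes with a match in any of their windows. The same count over all measured genes was not made, so they have no background and cannot be read as an excess or a lack. The shares that follow are of windows, of which a gene can have several, so the 2 kinds of figure are not alike. The motif was present in 8.30% of all 32851 promoters in the table and in 6.71% of the 11736 promoters of measured genes. It was in 8.82% of the 714 promoters of genes at least 2-fold higher, with 11.8% for those at least 4-fold higher, and in 4.19% of the 525 promoters of genes at least 2-fold lower. For TTCCNGGAA the shares were 1.21% of promoters of measured genes, 2.80% for genes higher and 0.762% for genes lower. TGANTCA was in 5.15%, 6.72% and 8.00%, and CAGCTG in 15.6%, 20.6% and 18.1%, in the same order. These are counts of letters in a window, which do not show that a factor was bound.

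Stretches around the matches are printed here because they belong to genes with the highest ratios, with the match in capitals and the rest in lower case, 5′ to 3′ on the strand of the gene. Positions are counted from the start site as 0. The match in Socs3 begins at -154, and the stretch is chr11:117969492-117969540 on the minus strand. That in Bdnf begins at -122, in chr2:109674558-109674606 on the plus strand. The match in Pros1 is the narrower TTCCNGGAA and begins at -92, in chr16:62854195-62854243 on the plus strand. Csf2rb2 has its match at -15, in chr15:78305708-78305756 on the minus strand, and Gcnt2 at -227, in chr13:40886511-40886559 on the plus strand. Casp12 holds a pair of matches, at -102 and -36, in chr9:5345354-5345402 on the plus strand and chr9:5345420-5345468. In Cish, with a signal of 83 in MuSC +OSM, a pair of matches begins at 0 and 11 of the same window. Stat3 and Osmr were looked up along with Cish and gave no match, or had no promoter to search. The E-box of Casq1, the gene with the lowest ratio, begins at -195 in chr1:172220065-172220110 on the minus strand. This motif does not set lower genes apart at 2-fold, with 20.6% of promoters of genes higher and 18.1% of genes lower. At 4-fold the shares were 26% and 30%.
Socs3: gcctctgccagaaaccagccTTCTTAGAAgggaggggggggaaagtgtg
Bdnf: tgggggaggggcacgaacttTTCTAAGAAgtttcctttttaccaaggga
Pros1: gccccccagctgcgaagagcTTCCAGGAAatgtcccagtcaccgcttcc
Csf2rb2: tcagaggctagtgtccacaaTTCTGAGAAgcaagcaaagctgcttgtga
Gcnt2: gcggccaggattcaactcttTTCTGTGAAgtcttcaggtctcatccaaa
Casp12 upstream: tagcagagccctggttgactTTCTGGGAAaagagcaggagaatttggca
Casp12 downstream: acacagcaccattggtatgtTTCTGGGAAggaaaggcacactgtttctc
Casq1 E-box: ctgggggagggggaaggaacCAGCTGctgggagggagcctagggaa

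Of 22 measured receptors for other cytokines 7 were at least 2-fold higher, or 31.8% beside 6.07% over all genes, and 1 was lower, and their median log2 ratio was 0.64. The chains that together form the receptor for interleukin-13 and one form of the interleukin-4 receptor led them. Il4ra had signals of 42 without OSM, 1270 with it and 274 in fresh MuSC, and Il13ra1 had 78, 1001 and 71. Il13ra1 thus had like signals in MuSC −OSM and fresh MuSC, and was 12.8-fold higher with OSM than without, whereas Il4ra was 30.2-fold higher, with other probe sets between 0.46 and 2.45 on the log2 scale beside 4.92. Csf2rb2, a β chain of the interleukin-3 receptor, had 48, 681 and 9, or 14.2-fold higher, but it is nearly identical to Csf2rb and probes may not separate them. Tnfrsf11b, the decoy receptor osteoprotegerin, had 6 and 208, or at least 5.2-fold higher. Csf1r, the receptor for colony stimulating factor 1, had 62 and 149, or 2.40-fold higher, and below 2-fold as the median over its probe sets. Epor, the erythropoietin receptor, was the lower gene, with 94 and 19.

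Inflammatory genes were divided. Among NF-kB factors and inhibitors, Nfkbiz, another atypical inhibitor, had 97 without OSM and 597 with it, or 6.15-fold higher, and Nfkbia, the classical inhibitor, had 1415 and 2617. Tnfaip3, which ends NF-kB signaling, went the other way at 336 and 84, or 4.0-fold lower, with its other probe set at -0.41 on the log2 scale. Of 12 measured chemokines 3 were higher, or 25% beside 6.07% over all genes, and 0 lower, and these were Cxcl12 at 74 and 238, Cxcl14 at 1 and 146, and Cxcl5 at 4 and 115. Cxcl1 had 59 and 41 in the cultures and 9538 in fresh MuSC. Of 22 acute phase and complement genes 15 lay under the floor in both cultures. Serping1, the inhibitor of complement C1, had 160 and 1420, or 8.88-fold higher, and Cp, the copper carrier ceruloplasmin, 125 and 386, or 3.09-fold. Cd55, which dissolves complement convertases at the cell surface, had 246 and 79, or 3.11-fold lower, although another probe set went the other way at 0.32 on the log2 scale. Saa3, an acute phase gene, had 43 and 40. Interferon response genes had 2 of 19 higher and 2 lower, which is 10.5% each way beside 6.07% and 4.39% over all genes, with the GTPase gene Irgm2 at 24 and 151, its relative Irgm1 at 52 and 106, and the antiviral genes Oas1a at 144 and 51 and Rsad2 at 90 and 37. Irgm1 was below 2-fold after quantile normalization and Rsad2 as the median over its probe sets. None of 11 measured genes of MHC class I and antigen processing passed 2-fold, with B2m at 1912 and 1388 and Tap2 at 242 and 438.

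In 11 lists of extracellular matrix genes and their enzymes the share of members at least 2-fold higher with OSM ran from 14.3% for integrins to 57.1% for small leucine-rich proteoglycans, beside 6.07% over all genes. Most measured members were higher in 2 of the lists, and the median log2 ratios of collagens, laminins, hyaluronan genes and integrins lay between -0.05 and 0.10. Small leucine-rich proteoglycans, which coat collagen fibrils, had 4 of 7 higher and 1 lower. Dcn, which encodes decorin, had 32 without OSM and 373 with it, Prelp 9 and 174, and Fmod, fibromodulin, 153 and 482, or 3.15-fold higher. Bgn, biglycan, had 3311 and 7946, or 2.40-fold, and Ogn, osteoglycin, 3095 and 1525, or 2.03-fold lower but under 2-fold with centred arrays and after quantile normalization. Matricellular proteins and fibronectin, which link matrix to cell receptors, had 9 of 17 higher and 0 lower and a median log2 ratio of 1.15. Prg4, the lubricant lubricin, had 16 and 577, or at least 14.4-fold higher. Tgfbi had 93 and 492, or 5.29-fold, with its 3 other probe sets in the same direction, and Postn, periostin, 674 and 2908, or 4.31-fold. Sparc, by contrast, had 7730 and 6896. Fresh MuSC had 12179 for Dcn, 2056 for Prelp, 4308 for Fmod, 1942 for Tgfbi and 7821 for Postn, all above both cultures. Bgn and Prg4 had 3458 and 448 there, between the cultures.

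Collagen chains were split, and the sign of their median log2 ratio, 0.03, changed to -0.15 after quantile normalization. Of 24 measured, 7 were higher and 3 lower. Col12a1, a collagen that decorates fibrils, had 372 and 2460, or 6.61-fold higher, and the fibrillar Col3a1 2249 and 7683, or 3.42-fold. The chains of basement membrane collagen were lower, with Col4a1 at 493 and 208, or 2.37-fold lower, and Col4a2 at 182 and 88, or 2.07-fold lower. Col4a2 stayed below 2-fold with centred arrays. Col25a1, a membrane-anchored collagen, had 1121 and 425, or 2.64-fold lower. Of other basement membrane genes, Nid1, nidogen, had 195 and 509, or 2.61-fold higher, Lamb1 194 and 491, or 2.53-fold, and Lama5 27 and 215, or at least 5.38-fold. Lamb1 was below 2-fold as the median over its probe sets and without those of the _s_at and _x_at kind, since its other probe sets lay at 0.51 and 0.76 on the log2 scale. Lama2, the laminin chain of mature muscle, had 798 and 547. In laminins and nidogens 4 of 11 measured were higher and 0 lower, the last being Lama4, named after its value was seen, at 6 and 92. Collagen-modifying enzymes had 5 of 14 higher and 0 lower. Lox, which cross-links collagen, had 1475 and 7247, Loxl3, its relative, 101 and 300, and Bmp1, which trims procollagen, 65 and 570, or 8.77-fold higher. Plod3, at 202 and 451, and Pcolce, at 358 and 1032, were named after their values were seen. The hydroxylase genes Plod1 and P4ha1 stayed within 2-fold, at 122 and 118 and at 2347 and 1881. Fbln2 at 62 and 741, Emilin1 at 115 and 513 and Emilin2 at 22 and 138 were the higher genes among 11 of elastic fibers and fibulins. The other probe set above the floor had a log2 ratio of 0.04 for Fbln2, beside 3.58, and of 0.43 for Emilin1, beside 2.16, so the size of both ratios is uncertain. Ltbp3, which holds latent TGF-β in the matrix, had 2290 and 1373, although its other 3 probe sets above the floor went the other way.

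Genes that cut, protect or decorate the matrix followed. Of 20 metalloproteinases and TIMPs above the floor 10 were at least 2-fold higher and 0 lower, with a median log2 ratio of 0.88. Timp1, an inhibitor of metalloproteinases, had 1445 without OSM, 8232 with it and 323 in fresh MuSC, or 5.70-fold higher with OSM. Timp2, another inhibitor, had 4996 and 2651, or 1.88-fold lower, with its 4 other probe sets in the same direction. Adamtsl1, a secreted protein without protease activity, had 50 and 684, or 13.7-fold higher, and the protease gene Adamts9 had 66 and 270, or 4.09-fold. Serpinb2, an inhibitor of plasminogen activators, had 3 and 1175, or at least 29.4-fold higher, and Plat, one of these activators, had 48 and 361, or 7.52-fold. Plau, the other activator, had 171 and 130. Pros1, the anticoagulant protein S, had 116 and 1025, or 8.84-fold higher. Heparan sulfate genes had 5 of 14 higher and 0 lower. Sulf1, which removes sulfates from heparan sulfate, had 112 and 2017, or 18.0-fold higher, and Hs6st2, which adds them, 740 and 1666, or 2.25-fold. Sdc1, syndecan-1, had 693 and 3465, or 5.0-fold higher, while Sdc3 and Sdc4, the syndecans of satellite cells, had 295 and 318 and 862 and 1368. Gpc4, a glypican, had 278 and 994, and Gpc6, named after its value was seen, 108 and 221. Vcan, the large proteoglycan versican, had 81 and 497, or 6.14-fold, and Has2, which makes hyaluronan, 29 and 148. Integrin genes mostly stayed within 2-fold. Itgb5 had 259 and 587, Itga4 89 and 19 and Itga7, the chain used for sorting, 1808 and 1238.

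**Figure D2:**
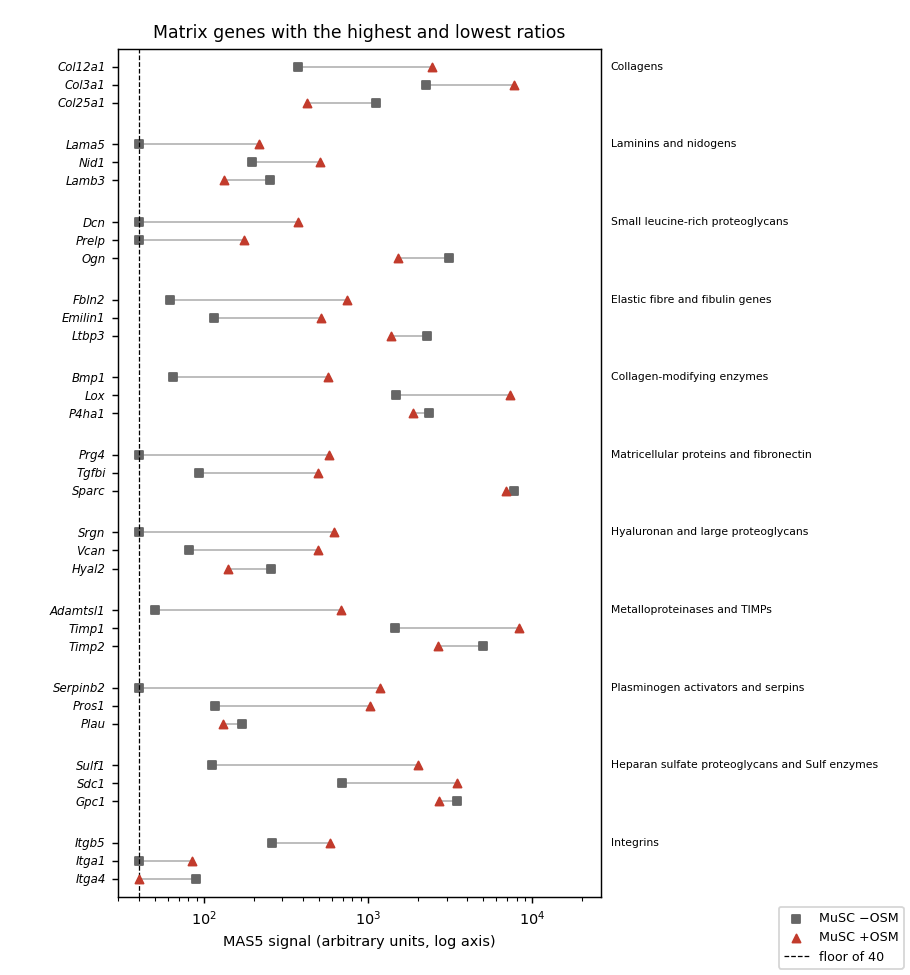
MAS5 signals of matrix genes on a log axis in arbitrary units, 1 array each, where a gray square is MuSC −OSM and a red triangle MuSC +OSM, for the 2 highest and the lowest ratio of each of 11 lists. The dashed line marks the floor of 40, to which lower signals were raised. Timp1 lies at 1445 and 8232, Ogn at 3095 and 1525.

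Fibroblast markers share Dcn and Col1a1 with these lists. Of 17 with a probe set 12 were measured, of which 4, or 33.3%, passed 2-fold upward with OSM and 0 downward. The median log2 ratio of the measured members was 0.41, beside -0.01 over all genes. Thy1, a surface marker of fibroblasts, had 64 and 291, and Col1a1 53 and 164. Pdpn, a membrane glycoprotein named after its value was seen, had 1337 and 4136. Pdgfra, a defining marker of fibro-adipogenic cells, had 17 and 43, Lum 26 and 43, Cd34 34 and 15, and Tcf21 42 and 36, all at or near the floor. By the paper, the sort took cells that were positive for CD34 and α7 integrin and negative for CD11b, CD31, CD45 and Sca1. The signal of Cd34 in fresh MuSC was 2222. Tendon markers shared Prg4 and Fmod with the matrix lists, and Scx, the tendon transcription factor, had 327 and 104, or 3.14-fold lower. Among 10 measured pericyte and smooth muscle markers 2, or 20%, were higher, Pdgfrb at 139 and 738 and Kcnj8 at 23 and 83. Rgs5 had 35 and 59. Acta2, smooth muscle actin, had 19053 and 13114, while its 2 other probe sets above the floor went the other way. The part of other cells in the matrix values was not tested, and in bulk RNA more cells of a type and more RNA per cell cannot be told apart.

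Growth factor lists differed in how many members passed 2-fold, beside 6.07% higher and 4.39% lower over all genes. Activins, TGF-β and their inhibitors had 23.8% higher and 0% lower, other growth factors and receptors 22.2% and 11.1%, the IGF system 15.4% and 7.69%, and the FGF system 5% and 25%. Igfbp4, which binds insulin-like growth factors, had 169 and 3601, or 21.3-fold higher, with its 5 other probe sets in the same direction but spread from 0.41 to 4.31 on the log2 scale. Igfbp5 had 530 and 5599, but its other probe set above the floor had a log2 ratio of -0.55, so its direction is uncertain. Igf2 had 5702 and 5881, Igf1r 385 and 686, and Irs1, an adaptor of the insulin and IGF receptors, 1280 and 582, or 2.20-fold lower but under 2-fold with centred arrays. Inhbb, an activin subunit, had 73 and 1105, or 15.1-fold higher. The TGF-β receptor genes Tgfbr2, at 318 and 2139, and Tgfbr3, at 152 and 384, were 6.73-fold and 2.53-fold higher. The ligand Tgfb3 had 1538 and 776, and Smad3, which carries the TGF-β signal, 1091 and 616. In this list 5 of 21 were higher and 0 lower, including Fstl1, a secreted relative of follistatin, at 552 and 1461. Smad7, named after its value was seen, had 194 and 481, but its other probe set above the floor had a log2 ratio of -0.13. Bmp4 had 59 and 174, or 2.95-fold, while Id1 and Id3, whose products block myogenic factors, had 3831 and 5251 and 3423 and 4158.

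Other ligands stood out singly. Bdnf, a neurotrophin, had 16 without OSM, 445 with it and 35 in fresh MuSC. Kitl, the ligand of the Kit receptor, had 60 and 421, or 7.02-fold higher, and the PDGF receptor gene Pdgfrb was 5.31-fold higher. Hbegf, a ligand of the EGF receptor, had 471 and 208, or 2.26-fold lower, Gdnf 80 and 40, and Angpt2 103 and 32. Gdnf was under 2-fold with centred arrays and after quantile normalization. FGF signaling and its feedback ran mostly the other way, with 1 of 20 measured higher and 5 lower. Fgf21, a stress hormone made by muscle, had 1596 without OSM and 291 with it, or 5.48-fold lower. Spry1, an inhibitor of receptor kinase signals in quiescent satellite cells, had 694 and 285, or 2.44-fold lower. The phosphatase genes Dusp2, at 143 and 58, and Dusp10, at 684 and 257, were 2.47-fold and 2.66-fold lower. Dusp10 was below 2-fold as the median over its probe sets, the other of which lay at -0.41 on the log2 scale. Fgfr3, named after its value was seen, had 466 and 225. Fgfr4, the FGF receptor of satellite cells, had 370 and 777, or 2.10-fold higher, which was below 2-fold after quantile normalization and as the median over its probe sets. Wnt pathway genes had 2 of 21 higher and 2 lower, or 9.52% each way, with the receptor genes Fzd4 at 51 and 193 and Fzd5 at 332 and 148, the inhibitor gene Sfrp4 at 58 and 131 and the ligand gene Wnt11 at 117 and 55. Both lower genes, Fzd5 and Wnt11, were under 2-fold with centred arrays. Notch genes had a median log2 ratio of -0.28, with 1 of 13 past 2-fold, or 7.69%, Notch2, at 247 and 598. The Notch target genes Hey1, at 277 and 191, and Heyl, at 143 and 86, were within 2-fold, whereas their signals in fresh MuSC were 1225 and 1196. Guidance genes had 6 of 31 higher and 2 lower, or 19.4% and 6.45%, with Nrp1, a coreceptor for semaphorins and VEGF, at 473 and 1717, the plexin gene Plxnb2 at 570 and 235 and Sema3b at 498 and 231, the last under 2-fold with centred arrays.

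The muscle program divided between its regulators and its end products. Among 17 measured genes of Pax, Eya, Six4 and myogenic factors 1 was at least 2-fold higher and 0 lower, shares of 5.88% and 0% that lie near or below those over all genes. Myf5 was that gene, with 561 without OSM and 1855 with it, or 3.31-fold higher, and 7016 in fresh MuSC. Pax3 had 57 and 92. Myog, the factor that starts terminal differentiation, had 21248 and 14369, or 1.48-fold lower, and Myf6, a factor of maturing fibers, 183 and 95, or 1.93-fold lower. The Mef2 genes, cofactors of the myogenic factors, ran the same way, with Mef2a at 8838 and 4723, Mef2c at 3294 and 1941 and Mef2d at 1634 and 1178. Their log2 ratios were within 2-fold. Six4, at 1038 and 671, and Eya1, at 220 and 169, were also within it. Tcf12 and Tcf4, E proteins that pair with myogenic factors, had 1971 and 3052 and 2521 and 3037. Surface and niche genes of satellite cells had 1 of 16 higher and 1 lower, or 6.25% each way. Cdh2, N-cadherin, had 4121 and 2141, and Megf10, a receptor of satellite cells, 3963 and 1853, or 2.14-fold lower but under 2-fold with centred arrays.

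Sarcomere genes were lower with OSM nearly throughout. Of 20 measured thick filament genes 10 were at least 2-fold lower, or 50% beside 4.39% over all genes, and 0 higher. All 20 had a ratio below 1, with a median log2 ratio of -1.10. Myh7, the slow and cardiac myosin heavy chain, had 11568 without OSM, 3179 with it and 437 in fresh MuSC, or 3.64-fold lower with OSM. Myh2, a fast myosin, had 176 and 24, and Myl2, a slow myosin light chain, 182 and 25, so that both lay under the floor with OSM. Myl4, an embryonic light chain, had 20848 and 12954, Mylpf 23045 and 13476, and Ttn, titin, 9041 and 6343, and these stayed within 2-fold. Of 30 thin filament and Z disc genes 12 were lower, or 40%, and 0 higher. Their median log2 ratio was -0.88, and it was -0.55 after quantile normalization. Tpm1, a tropomyosin, had 7982 and 1883, or 4.24-fold lower, with 3 other probe sets between -2.42 and 0.32 on the log2 scale. Tcap, a cap of titin at the Z disc, had 1361 and 318, or 4.28-fold lower, and the fast troponin gene Tnnc2 7251 and 1716, or 4.23-fold. Acta1, skeletal actin, had 23868 and 15326. Tpm3, a tropomyosin also used outside muscle, had 1583 and 2269.

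Genes for calcium release, the synapse and fuel use followed the sarcomere. In excitation-contraction coupling 9 of 22 were lower and 1 higher, with a median log2 ratio of -0.78. These are 40.9% and 4.55%, beside 4.39% lower and 6.07% higher over all genes. Casq1 and Casq2, calcium stores of the sarcoplasmic reticulum, had 1011 and 138, or 7.33-fold lower, and 10616 and 3405, or 3.12-fold lower. Srl, sarcalumenin, had 11379 and 5056, or 2.25-fold lower, whereas the calcium pump gene Atp2a2 had 7927 and 5984. Pvalb, a soluble calcium buffer of fast fibers, was the higher gene, at 6 and 166. At the neuromuscular junction 3 of 11 genes were lower, or 27.3%, and 0 higher. Chrng, the embryonic acetylcholine receptor subunit, had 1921 and 527, or 3.65-fold lower, Musk, its organizing kinase, 945 and 437, and Lrp4, the agrin receptor, 362 and 162. Musk and Lrp4 were under 2-fold with centred arrays. Chrna1 had 13791 and 9443, Chrnb1 1647 and 1691 and Agrn, agrin, 154 and 202. Dystrophin complex genes had 1 of 11 higher and 1 lower, or 9.09% each way, with the sarcoglycan genes Sgcb at 2425 and 3668 and Sgce at 154 and 308, Dag1, dystroglycan, at 4400 and 2243, and Dtna at 821 and 368. Sgce was below 2-fold after quantile normalization and Dtna with centred arrays. Enzymes of muscle fuel use had 7 of 19 lower, or 36.8%, 0 higher and a median log2 ratio of -0.79. Car3, a muscle carbonic anhydrase, had 814 and 141, or 5.77-fold lower, Fabp3, a fatty acid carrier, 1744 and 356, or 4.90-fold, Ckb, a creatine kinase, 2928 and 835, or 3.51-fold, and Pfkm, the muscle phosphofructokinase, 1864 and 589, or 3.16-fold. Mb, myoglobin, had 13170 and 7310.

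**Figure D3:**
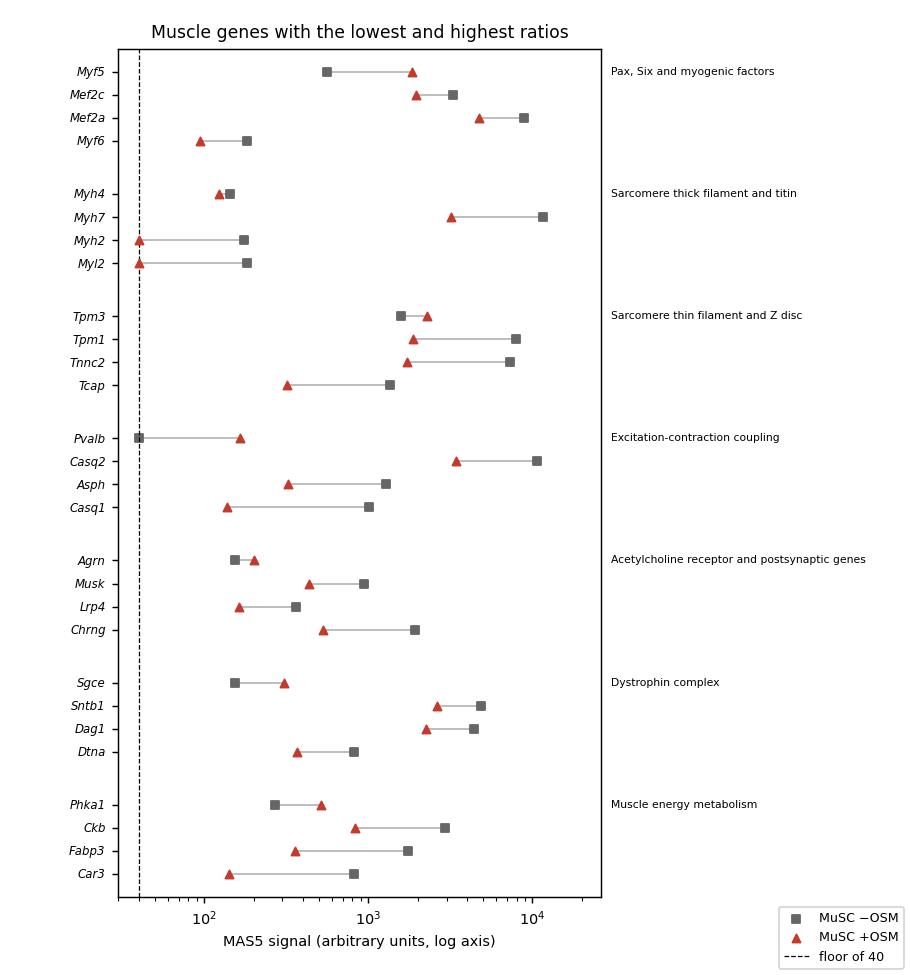
MAS5 signals of muscle genes on a log axis in arbitrary units, 1 array each, where a gray square is MuSC −OSM and a red triangle MuSC +OSM, for the highest and the 3 lowest ratios of each of 7 lists. The dashed line marks the floor of 40. Myf5 lies to the right with OSM, at 561 and 1855, and Myh7, Tpm1 and Casq1 lie to the left, the last at 1011 and 138.

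Cell cycle genes mostly lay within 2-fold, and 1 cyclin did not. Ccnd1, which encodes the G1 cyclin D1, had 528 without OSM, 81 with it and 1798 in fresh MuSC, or 6.52-fold lower with OSM, and its 2 other probe sets had log2 ratios of -2.15 and -1.92. The other D cyclins did not share this, with Ccnd2 at 65 and 75 and Ccnd3 at 1643 and 1911. Their kinases were within 2-fold, with Cdk4 at 1103 and 714, Cdk6 at 183 and 245 and Cdk2 at 639 and 403. Cyclin E genes were Ccne1 at 133 and 74 and Ccne2 at 222 and 294. E2f8, a repressor among the E2F factors, had 2939 and 1107, or 2.65-fold lower, and E2f1 had 48 and 45. Of 17 genes 2 were lower and 0 higher, or 11.8% and 0%, beside 4.39% and 6.07% over all genes. Among 15 CDK inhibitors and related genes 1, or 6.67%, was higher, Btg1, an antiproliferative gene, at 2756 and 8016, or 2.91-fold. Cdkn1b, which encodes p27, had 337 and 478, or 1.42-fold higher, Cdkn1a, which encodes p21, 12109 and 9007, and Cdkn1c, p57, 462 and 311. Rb1 had 2929 and 2182 and its relative Rbl2 110 and 172. Of 29 replication genes 28 were within 2-fold, with Pcna, the polymerase clamp, at 2992 and 2761 and the ribonucleotide reductase gene Rrm2 at 6119 and 7369. The exception, or 3.45%, was Gins2, a subunit of the replicative helicase, which was lower, at 187 and 73. Of 33 genes of G2 and mitosis 32 were within 2-fold, with Top2a at 991 and 828 and Cdc20 at 781 and 821. Cdca8, or 3.03% of them, was lower, at 456 and 216, and was under 2-fold with centred arrays. Their median log2 ratio was -0.24, and 24 of the 33 ratios lay below 1.

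Stress and detoxification genes also differed by class. Early genes had 7 of 25 higher and 1 lower, or 28% and 4%, with Ier3, a regulator of cell survival, at 253 and 2375, or 9.39-fold higher, Egr1 at 4005 and 5036, Jun at 2547 and 1541, and Fosl1, a subunit of AP-1, at 120 and 49. Metallothioneins and antioxidant genes had 8 of 24 higher and 2 lower, or 33.3% and 8.33%. Mt2 had 2278 and 7797, or 3.42-fold, Mt1 1587 and 4521, or 2.85-fold, Gpx3, a secreted glutathione peroxidase, 391 and 1646, or 4.21-fold, and Mgst1, a membrane glutathione transferase, 174 and 1331, or 7.65-fold. Mt1 was below 2-fold as the median over its probe sets and without the _s_at and _x_at kind, since its other probe set lay at 0.35 on the log2 scale. Mgst3, the relative of Mgst1, had 304 and 112, and Sod2 2872 and 1881. Heat shock genes had 5 of 17 lower, or 29.4% beside 4.39% over all genes, 0 higher and a median log2 ratio of -0.55. The lower ones included the small heat shock genes of muscle, with Hspb7 at 1171 and 342, Hspb3 at 2788 and 1071 and Hspb2 at 4097 and 1652. Hspb7 was below 2-fold as the median over its probe sets. Hspb8, at 12242 and 5761, and its partner Bag3, at 1486 and 720, were named after their values were seen. The general chaperone genes Hspa8, at 20458 and 14427, and Hspd1, at 4043 and 3819, stayed within 2-fold. In the ATF4 and unfolded protein response 3 of 26 were lower and 1 higher, or 11.5% and 3.85%. Ddit4, an inhibitor of mTOR signaling, had 503 and 1769, or 3.52-fold higher, Stc2, a stress-induced secreted hormone, 457 and 191, Sesn2 97 and 43, and Atf4 itself 3249 and 3596. Stc2 and Sesn2 were below 2-fold as the median over their probe sets.

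Metabolic lists held small ratios in many members. None of 33 measured genes of oxidative phosphorylation passed 2-fold, but 32 of the 33 ratios lay below 1 and the median log2 ratio was -0.46. Ndufs4, a subunit of complex I, had 1600 and 843, Cycs, cytochrome c, 15498 and 9139, and Uqcrb, of complex III, 17019 and 10425. Ndufb3 had 1252 and 1511. Ribosomal protein genes had 22 of 24 ratios below 1 and a median log2 ratio of -0.33, which turned to 0.11 after quantile normalization. Both lists lay among bright probe sets, whose ratios were lower over all genes too, as the median of -0.26 for genes above 2560 shows, and the part of the scaling in these shifts was not tested. Of 23 measured genes of glycolysis 20 stayed within 2-fold, 2 were higher and 1, Pfkm, was lower. These are 8.7% and 4.35%, near the 6.07% and 4.39% over all genes. The higher genes were Hk2, a hexokinase, at 764 and 1781, or 2.33-fold higher, and the lactate transporter gene Slc16a1 at 1456 and 3078, or 2.11-fold higher. Ldha had 13347 and 10447. Fdft1, the squalene synthase, had 487 and 1347, or 2.77-fold higher, while Hmgcs1, earlier in the same route to cholesterol, had 1833 and 1783. Slc7a7, at 10 and 157, and Slc1a4, at 139 and 405, carriers of amino acids, were at least 3.92-fold and 2.91-fold higher.

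**Figure D4:**
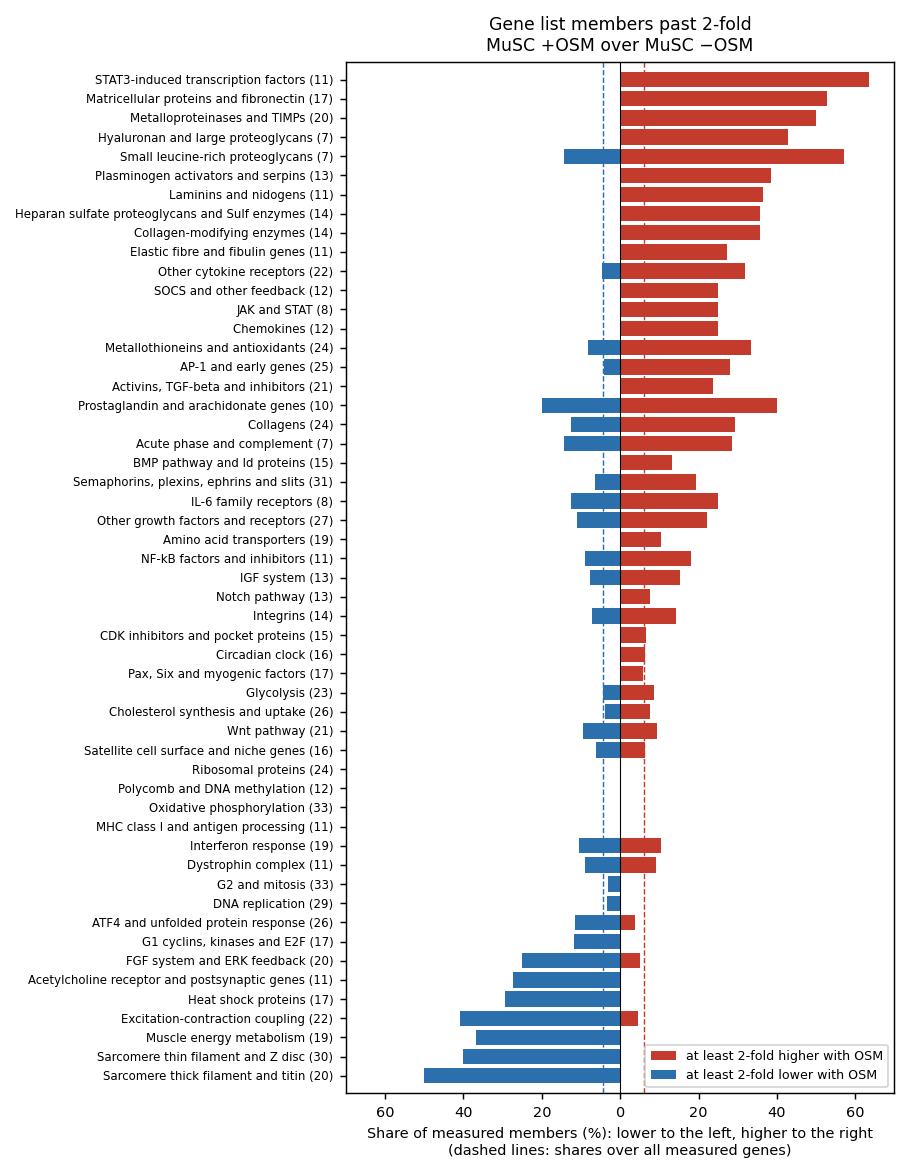
Share of the measured members of each gene list that were at least 2-fold higher in MuSC +OSM than in MuSC −OSM, in red to the right, or at least 2-fold lower, in blue to the left, in percent, for lists with at least 6 measured genes and with the number measured in brackets. Dashed lines give the shares over all measured genes, 6.07% and 4.39%. STAT3-induced factors reach 63.6% higher and thick filament genes 50% lower. The lists were chosen with earlier results of these data known.

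Several of the genes with the highest ratios belonged to none of the lists. Of the 30 highest, with ratios from 65.1 down to 8.47, 18 were in a list, and of the 30 lowest, from 7.33 to 4.36, 7 were. Xdh, xanthine dehydrogenase of purine breakdown, had 29 without OSM, 568 with it and 38 in fresh MuSC, or at least 14.2-fold higher. Cyp1b1, a cytochrome P450, had 148, 1513 and 143, or 10.2-fold higher, and its other probe set had a log2 ratio of 3.29. Both were thus alike in fresh MuSC and MuSC −OSM and apart from them with OSM. Nnmt, which methylates nicotinamide, had 70 and 749, or 10.7-fold, Aebp1, a secreted protein of connective tissue, 117 and 1425, or 12.2-fold, and Gcnt2, a glycosyltransferase that branches sugar chains, 137 and 1619, or 11.8-fold. Casp12, a caspase of the inflammatory group, had 37 and 380, and Vsir, the immune checkpoint protein VISTA, 20 and 339. Car12, a membrane carbonic anhydrase, had 26 and 375, opposite to Car3. The polysialyltransferases, both of which add polysialic acid to the adhesion molecule NCAM, were also opposed. St8sia4 had 45 and 407, or 9.04-fold higher, and St8sia2 1022 and 184, or 5.55-fold lower, while Ncam1 had 3882 and 2771.

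Among the lowest genes several encode muscle proteins that the lists had left out. Fhod3, a formin of the sarcomere, had 789 and 138, or 5.72-fold lower, and Pgm5, a protein of muscle adhesion sites, 1777 and 326, or 5.45-fold. Lrrc39, a protein of the M band, had 175 and 23, or at least 4.38-fold lower, and Txlnb, a taxilin of muscle, 490 and 110, or 4.45-fold. The remainder were of other kinds. Tceal7 had 985 and 141, or 6.99-fold lower, Klhl30, a kelch-like protein, 2497 and 493, or 5.06-fold, and Aif1l, an actin-binding protein, 1117 and 190, or 5.88-fold. Kcnf1, a potassium channel subunit, had 272 and 24 and Nptx1, a neuronal pentraxin, 241 and 27, so both went under the floor. Frem2, a basement membrane protein, had 824 and 150, or 5.49-fold lower, and Gfra2, the neurturin receptor, 261 and 57, or 4.58-fold. In fresh MuSC Fhod3 had 18, Tceal7 8 and Frem2 45, all lower than in both cultures, whereas Pgm5 had 614 and Gfra2 362. The ratio of Gfra2 was below 2-fold without probe sets of the _s_at and _x_at kind. Anxa3, an annexin, had 1664, 374 and 1422 in MuSC −OSM, MuSC +OSM and fresh MuSC, and so was low in MuSC +OSM alone among these arrays.

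Where a gene had more than 1 probe set, the second could be set beside the first as a reading from the same RNA, which is not a replicate of the culture. Over 2732 genes whose brightest and second probe sets both reached 160, the log2 ratios of the pair differed by a median of 0.30 and by 0.79 at the 90th percentile. Of 164 such genes at least 2-fold higher by the first probe set, 95.1% were higher by the second and 65.2% were at least 2-fold higher. Of 82 at least 2-fold lower, 96.3% were lower by the second and 65.9% at least 2-fold lower. Ratios near 2 thus often fell to either side of the threshold from 1 probe set to the next. Other named genes had a further probe set above the floor that stayed under 2-fold in the same direction. Those higher with OSM were Adamtsl1, Bmp1, Car12, Col1a1, Cp, Cxcl14, Gcnt2, Hs6st2, Inhbb, Itgb5, Kitl, Lox, Nfkbiz, Pdgfrb, Ptgs2, Slc1a4, St8sia4 and Vsir, and those lower were Car3, Cdca8, Col4a1, Nptx1 and Scx. Among these the lowest log2 ratio of a further probe set was 0.23, in Ptgs2, and the one nearest 0 for a lower gene was -0.20, in Car3. Of the 30 highest genes 12 had no other probe set above the floor, and of the 30 lowest 21 had none.

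**Figure D5:**
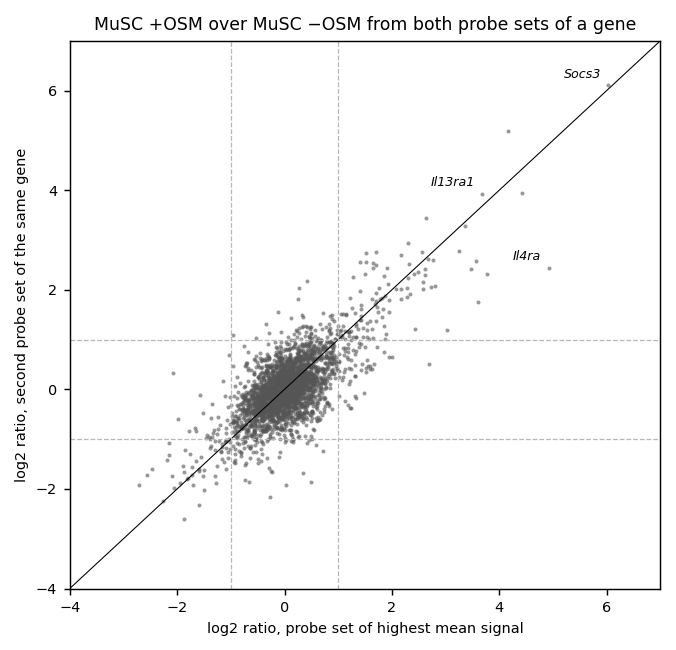
Log2 ratio of MuSC +OSM over MuSC −OSM read from the probe set of highest mean signal, on the horizontal axis, and from the second probe set of the same gene, on the vertical axis, for 2732 genes with both at 160 or more. Dashed lines mark 2-fold and the solid line equality. Socs3 and Il13ra1 lie near the line, and Il4ra lies below it.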

How the data were processed

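RNA of FACS-sorted MuSC was measured on Affymetrix mouse arrays, of which the series holds 1 for each of 3 conditions. The intensity values deposited by the authors are linear MAS5 signals, with every array scaled by them to the same mean, and the MAS5 version was not found in the labels or the paper. Each array's condition came from its label.

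Ratios of MuSC +OSM to MuSC −OSM were computed with pandas 2.3.3, numpy 2.4.6 and scipy 1.17.1 under Python 3.11.15, and figures were drawn with matplotlib 3.10.9. Of the probe sets, 64 controls were left out and 45037 entered, of which 34945 name 1 gene, 932 several and 9160 none in the platform annotation used here, which can be old. A total of 34741 had an identifier in a mouse gene table, and 0 symbols changed. Signals under 40, which is the median over all arrays, were raised to it, and the probe set with the highest mean over the arrays stood for a gene. "At least" before a fold marks a lower signal under the floor. Raising low signals makes the fold of dim genes smaller than it may be. With 1 array a side no spread between replicates could be had, so 2-fold is a mark of size and not a test.

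A total of 61 gene lists held 1254 genes, of which 1163 had a probe set of their own and 936 were measured. The members and lists were chosen with earlier results of these data known. Named genes are the 30 highest and 30 lowest among those with a signal of at least 160 and no other probe set above the floor in the opposite direction, the genes named in the paper, up to 3 highest and 3 lowest and the 2 brightest members of each list, and all members of 6 lists. These are the lists of IL-6 family receptors, JAK and STAT, SOCS, myogenic factors, G1 cyclins and CDK inhibitors. Genes outside this rule are marked as named after their values were seen, apart from the satellite cell and myoblast markers. Promoters came from RefSeq. Alternatives were another scaling, floor, choice of probe set and fold threshold, and the steps were tested on simulated data. No paired analysis was made, and depth does not apply to arrays.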

Additional observations from a re-analysis of the deposited data

Results flagged for a closer look

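Probe sets that name no gene in the annotation used here took part in none of the comparisons above. Of 9160 such probe sets 2350 were measured, and 159 of these were at least 2-fold higher in MuSC +OSM than in MuSC −OSM and 74 were at least 2-fold lower. These are 6.77% and 3.15% of those measured, beside 6.07% and 4.39% of the measured genes. They are given as counts because no gene could be attached to them here.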

How the results depend on the processing

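The counts of genes past 2-fold depended most on the floor and the threshold. With the floor at the 25th percentile of all signals 1249 genes were higher and 1665 lower, and with it at the 75th percentile 300 and 221. At 1.5-fold the counts were 1643 and 1474, and at 3-fold 255 and 136. A lower floor admits ratios of dim probe sets and a higher one removes them, as it is built. With centred arrays 992 were higher and 385 lower, with quantile normalization 609 and 514, and with the median over the probe sets of a gene 561 and 434. The median log2 ratio of ribosomal protein genes turned from -0.33 to 0.11 after quantile normalization, and the cause was not tested. Without probe sets of the _s_at and _x_at kind, whose probes can match several transcripts, the log2 ratio of Igfbp5 turned to -0.55, since only its other probe set was left. Of 196 named genes past 2-fold, 181 stayed past it in the same direction with centred arrays, 187 after quantile normalization, 196 with the lower floor and 181 with the median over probe sets, and with the higher floor 128 of the 156 that could be read did. Medians near 0 changed sign easily, as for integrins, the IGF system, the Wnt pathway, G1 cyclins, CDK inhibitors, glycolysis, cholesterol synthesis and amino acid transporters with centred arrays. No paired analysis was possible because each condition has 1 array. Leaving out an array was not possible either, since no array of the same condition would be left.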

Other observations

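Genes of prostaglandin metabolism differed by enzyme and receptor. With OSM, 4 of the 10 measured were at least 2-fold higher and 2 lower. These are 40% and 20%, beside 6.07% and 4.39% over all genes. Ptgs2, the inducible cyclooxygenase COX-2, had 97 without OSM and 392 with it, or 4.04-fold higher. Its other probe set above the floor had a log2 ratio of 0.23 beside 2.01, so the size of this ratio is uncertain. Ptger4, a receptor for prostaglandin E2, had 272 and 1622, or 5.96-fold, and Hpgd, which breaks prostaglandins down, 17 and 204. Pla2g4a, which releases the fatty acid precursor and was named after its value was seen, had 41 and 124. Ptgis, which makes prostacyclin, had 2151 and 961, or 2.24-fold lower, and Alox5, the lipoxygenase that starts leukotriene synthesis, 159 and 53, or 3.00-fold lower. Ptgis was under 2-fold with centred arrays.

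Of 16 measured genes of the circadian clock 1 was at least 2-fold higher and 0 lower, or 6.25% and 0%. The first share lies near the 6.07% over all genes, of which 4.39% were lower. The higher gene was Bhlhe40, a repressor of the clock, at 483 and 1121, while Nr1d2 had 1139 and 2069, Dbp 170 and 306 and Per1 115 and 72. None of 12 measured genes of Polycomb and DNA methylation passed 2-fold, with Ezh2, the Polycomb methyltransferase, at 629 and 617 and Tet2, which oxidizes methylated cytosine, at 213 and 385. Adipocyte markers were largely under the floor, and Pparg, the adipocyte transcription factor, had 150 and 24, or at least 3.75-fold lower. Of 7 measured Schwann cell markers 1, or 14.3%, was higher, Cdh19, at 43 and 145. Mbp, myelin basic protein, had 66 and 98 in the cultures and 3747 in fresh MuSC.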
